A study of Mus musculus with 2 samples.

Results

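The data describe 10 transcription factor genes of the dorsal horn lineages, Lmx1b, Tlx3, Lbx1, Prdm8, Pax2, Pax8, Gbx1, Sall3, Lhx1 and Lhx5, out of 32285 genes counted in each library. They were chosen by name, and each of the 10 was present in both count matrices. Nuclei came from the spinal cords of iNeuroD1GFP mice, male and 8 weeks old by the labels, which were injured at postnatal day 60. Daily tamoxifen (100 mg/kg) followed on post-injury days 5 to 8, and tissue was taken on post-injury day 10. The injury core gave 1 library and a second region gave 1 library, which the sample labels call distal and the extraction protocol calls peri-injury and which is called distal below, and both regions carry the same genotype, injury and tamoxifen, so there is no uninjured and no uninduced group. The design names 3 mice, and whether they were pooled is not stated, nor is the promoter that drives the transgene given in the sources used here. Nuclei were profiled by droplet single-nucleus RNA sequencing, in which each captured transcript is counted once through a unique molecular identifier (UMI).

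The dorsal horn is the sensory part of the spinal cord's grey matter, and its interneurons either excite through glutamate or inhibit through GABA and glycine. In the embryo most of them arise from progeny that switch on the homeobox gene Lbx1, after which excitatory precursors keep Tlx3 and Lmx1b, and inhibitory precursors switch on Pax2, often with Lhx1, Lhx5, Pax8 and Gbx1. Tlx3 is known to promote the glutamatergic fate, and Pax2 is needed for the GABAergic one. Sall3 encodes a zinc finger repressor of the spalt family, and Prdm8 a zinc finger factor of the PR domain family that acts in neuronal development.

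RefSeq start sites on GRCm38.p6 were matched by symbol for 6 of the 10 genes. The 250 bases before the start are shown for Lmx1b and Tlx3, the factors of excitatory precursors, and for Pax2 and Pax8, whose levels ran together across neurons. Pax2 has 3 listed starts, and the nearest to its GENCODE start was taken. Letters were searched on both strands, and capitals mark matches to TAAT (the core bound by many homeodomain proteins, read ATTA on the other strand) and to the E boxes CAGATG and CAGCTG (letters read by basic helix-loop-helix proteins, the class of NeuroD1). Each line runs 5′ to 3′ along the gene: Lmx1b is chr2:33641099-33641348 on the reverse strand, Tlx3 is chr11:33203589-33203838 on the reverse strand, Pax2 is chr19:44755502-44755751 on the forward strand and Pax8 is chr2:24475600-24475849 on the reverse strand.
Lmx1b: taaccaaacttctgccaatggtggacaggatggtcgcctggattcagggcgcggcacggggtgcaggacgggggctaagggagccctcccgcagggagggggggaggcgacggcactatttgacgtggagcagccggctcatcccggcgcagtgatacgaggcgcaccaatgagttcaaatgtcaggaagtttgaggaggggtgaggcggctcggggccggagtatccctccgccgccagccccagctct
Tlx3: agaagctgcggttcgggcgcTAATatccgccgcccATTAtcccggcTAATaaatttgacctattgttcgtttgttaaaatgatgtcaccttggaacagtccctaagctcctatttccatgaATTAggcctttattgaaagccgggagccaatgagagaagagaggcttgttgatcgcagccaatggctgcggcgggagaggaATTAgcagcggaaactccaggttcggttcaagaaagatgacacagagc
Pax2: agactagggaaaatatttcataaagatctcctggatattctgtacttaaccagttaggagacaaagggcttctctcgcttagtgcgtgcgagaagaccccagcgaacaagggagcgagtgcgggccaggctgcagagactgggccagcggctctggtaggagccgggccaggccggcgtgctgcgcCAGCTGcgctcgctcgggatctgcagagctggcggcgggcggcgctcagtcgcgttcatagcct
Pax8: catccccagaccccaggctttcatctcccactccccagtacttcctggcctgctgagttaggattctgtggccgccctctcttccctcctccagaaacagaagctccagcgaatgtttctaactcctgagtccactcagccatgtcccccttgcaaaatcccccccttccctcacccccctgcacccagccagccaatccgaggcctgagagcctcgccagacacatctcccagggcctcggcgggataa
The Tlx3 window held 5 TAAT matches and no E box, and the Pax2 window held 1 CAGCTG match and no TAAT. The Lmx1b and Pax8 windows held none of these letters. Among 32851 listed start sites, 54.9% of windows of this length held TAAT, 14.4% CAGATG and 13% CAGCTG. GC content was 48.8% for Tlx3 against 65.2% for Lmx1b, 60.8% for Pax2 and 60.4% for Pax8.

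In the GENCODE M21 annotation of GRCm38, Lmx1b spans chr2:33560965-33640511, Tlx3 chr11:33200752-33203589, Lbx1 chr19:45232684-45235812 and Prdm8 chr5:98167198-98188991. Pax2 spans chr19:44756045-44837871, Pax8 chr2:24420560-24475599, Gbx1 chr5:24502757-24527202, Lhx1 chr11:84518284-84525535 and Lhx5 chr5:120431699-120441223, and Sall3 lies on chromosome 18. UMIs were counted per gene, so exons and introns were not separated. Annotated transcripts on the opposite strand overlap Pax2 (Gm20395 and 1700039E22Rik), Pax8 (Gm13415), Lhx5 (Gm27199) and Prdm8 (A730035I17Rik), and whether strand was used in counting is not stated. Gm27199, counted as a gene of its own, held 120 UMIs in core neurons against 151 for Lhx5. Whether the counts of either include reads of the other was not tested.

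The core library held 16362 barcodes and 30469263 UMIs, and the distal library 7452 barcodes and 19049572 UMIs, with 38 barcode sequences in common. Clustering without the 10 genes put 8799 core and 1495 distal barcodes into neuron clusters, with medians of 1871 and 2092 UMIs. Neurons were called excitatory with at least 1 UMI of Slc17a6, the vesicular glutamate transporter, and none of Gad1, Gad2, Slc32a1 or Slc6a5, the GABA and glycine genes, and inhibitory in the reverse case. That gave 749 excitatory and 2104 inhibitory nuclei in the core and 198 and 215 in the distal region. Most neurons (5748 core, 1065 distal) had no UMI of any of the 5 genes, and 198 core and 17 distal neurons had both kinds. In the core, 1 large cluster, called cluster 1 below, held 50.9% of the neurons, and 6121 further barcodes, which varied little more than draws from 1 shared profile, were set apart as background-like. The summed level of 8 neuron markers was 23135 UMIs per 1000000 UMIs of the class (CPM) in core neurons and 16697 to 20593 CPM in the core glial classes, against 16082 CPM in distal neurons and 3497 to 6867 CPM in distal glia. Core glia thus held neuron markers at nearly the neurons' level. Slc17a6 itself stood at 55.5 CPM in core neurons and 59.0 to 63.6 CPM in core oligodendrocyte precursors, astrocytes and myeloid nuclei, from 5 to 8 UMIs. In the distal region it stood at 68.4 CPM in neurons and 8.78 to 30.1 CPM in glia. For Slc6a5 the ratio of core neurons was 4.80 (1.33 to 39.7) over astrocytes but 0.558 (0.347 to 0.960) over myeloid nuclei. In the core 1 UMI is thus weak evidence of class, and the part of such RNA in the values below was not tested. Levels are in CPM, from UMIs summed over a class, with exact Poisson 95% intervals, and ratios carry exact conditional 95% intervals. All such intervals cover counting error only, and with 1 library per region no difference has a replicate check. A gene with at least 20 UMIs in the 2 sums was called higher or lower where the ratio was at least 2-fold and the interval excluded 1.

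Lmx1b, a LIM homeobox gene, was higher in excitatory than in inhibitory nuclei in both libraries. In the core its level was 99.2 CPM (85.7 to 114, 195 UMIs) in excitatory and 37.6 CPM (32.8 to 43.0, 218 UMIs) in inhibitory nuclei, and in the distal region it was 157 CPM (127 to 193, 91 UMIs) and 33.1 CPM (21.4 to 48.9, 25 UMIs). Both excitatory intervals lay above both inhibitory ones. The ratio was 2.64 (2.16 to 3.21) in the core and 4.75 (3.02 to 7.72) in the distal region. In the core 0.895% of the 12962 genes with enough UMIs were called higher in excitatory nuclei, and 1 of the 7 factors with enough UMIs was, Lmx1b. In the distal region the share was 2.21% of 7811 genes, and 1 of 4 factors was called higher, again Lmx1b.

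Tlx3, the homeobox gene that with Lmx1b marks excitatory precursors, had too few UMIs for a call by single nuclei. Its level was 2.54 CPM (0.826 to 5.93) in core excitatory and 1.73 CPM (0.828 to 3.17) in core inhibitory nuclei, from 5 and 10 UMIs. In the distal region it was 12.1 CPM (4.86 to 24.9) and 2.65 CPM (0.321 to 9.57), from 7 and 2 UMIs. These intervals overlapped within each library, and the core background-like barcodes held 4.68 CPM. When all neurons were assigned by the transmitter genes of their neuron subcluster, which brings in the nuclei without a transmitter UMI, Tlx3 was called higher in the excitatory side in both libraries. It then stood at 5.75 against 1.48 CPM in the core, a ratio of 3.88 (2.19 to 7.20), and at 13.7 against 1.78 CPM in the distal region, a ratio of 7.70 (1.98 to 66.0). The largest core subclusters, of 2529 and 1799 nuclei, had similar transmitter levels but fell on opposite sides. The inhibitory one held 55.2 CPM of Slc17a6, 183 CPM of the inhibitory genes and 0.890 CPM of Tlx3, and the excitatory one 56.7, 149 and 2.18 CPM. Under the same assignment Lmx1b stood at 124 against 27.1 CPM in the core, a ratio of 4.57 (4.03 to 5.21), and at 166 against 11.6 CPM in the distal region, a ratio of 14.3 (8.26 to 27.0).

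Lbx1, the gene shared by most dorsal horn precursors, and Prdm8 were close to the detection limit. Lbx1 gave 26 UMIs in all core neurons (1.31 CPM, 0.857 to 1.92) and 4 in all distal neurons (1.07 CPM, 0.291 to 2.74). Prdm8 gave 54 UMIs in core neurons (2.72 CPM, 2.05 to 3.56) and 9 in distal neurons (2.40 CPM, 1.10 to 4.57). The core background-like barcodes held 2.91 CPM of each, so neither gene stood above that level in core neurons. Neither had 20 UMIs over excitatory and inhibitory nuclei, and no difference between those classes was detectable at this depth.

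Pax2, which directs the inhibitory fate, was lower in excitatory than in inhibitory nuclei in both libraries. Its inhibitory level was 136 CPM (126 to 145, 786 UMIs) in the core and 135 CPM (110 to 164, 102 UMIs) in the distal region. Its excitatory level was 48.3 CPM (39.1 to 59.1, 95 UMIs) in the core and 12.1 CPM (4.86 to 24.9, 7 UMIs) in the distal region. The inhibitory intervals overlapped between libraries and the excitatory ones did not. The ratio of excitatory over inhibitory was 0.356 (0.285 to 0.441) in the core and 0.0895 (0.0351 to 0.191) in the distal region.

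Pax8, a paired-box paralog of Pax2, had the same order. Core inhibitory nuclei held 43.0 CPM (37.8 to 48.7, 249 UMIs) and core excitatory nuclei 13.7 CPM (27 UMIs), a ratio of 0.319 (0.206 to 0.476). Distal inhibitory nuclei held 82.1 CPM (63.0 to 105, 62 UMIs) and distal excitatory nuclei 3.45 CPM (0.418 to 12.5, 2 UMIs), a ratio of 0.0421 (0.00498 to 0.159). Distal Pax8 was thus the highest of the inhibitory and the lowest of the excitatory values of this gene.

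Sall3 was likewise called lower in excitatory nuclei in both libraries. It stood at 34.7 CPM (30.1 to 39.8) in core inhibitory and 7.12 CPM (3.89 to 11.9) in core excitatory nuclei, from 201 and 14 UMIs. The distal values were 56.9 CPM (41.2 to 76.7) and 5.18 CPM (1.07 to 15.1), from 43 and 3 UMIs. The ratios were 0.205 (0.110 to 0.352) and 0.0910 (0.0181 to 0.284), and excitatory and inhibitory intervals were apart in each library. The distal call was lost at a minimum of 50 UMIs.

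Gbx1, a homeobox gene of late-born dorsal inhibitory neurons, and Lhx1, a LIM homeobox gene, passed in the core alone, where the UMIs sufficed. Gbx1 stood at 19.0 CPM (15.6 to 22.9) in inhibitory and 8.14 CPM (4.65 to 13.2) in excitatory core nuclei, a ratio of 0.429 (0.237 to 0.727). Its distal values were 18.5 CPM (10.1 to 31.1) and 8.64 CPM (2.80 to 20.2), from 14 and 5 UMIs. Lhx1 stood at 7.42 CPM (5.37 to 10.0) and 3.05 CPM (1.12 to 6.64) in the core, a ratio of 0.411 (0.143 to 0.970), and at 10.6 and 1.73 CPM in the distal region, from 8 and 1 UMIs. The Gbx1 call was lost with finer clusters (0.523 at resolution 2.0) and when all barcodes, not neurons alone, were classed (0.523). The Lhx1 call was lost when background-like barcodes counted as neurons (0.501), with all barcodes (0.584) and at a minimum of 50 UMIs. Lhx5, its paralog, stood at 9.32 CPM (54 UMIs, interval up to 12.2) in inhibitory and 5.09 CPM (10 UMIs) in excitatory core nuclei, and its ratio of 0.546 (0.248 to 1.08) was not called. In core inhibitory nuclei the intervals of Lhx1 and Lhx5 overlapped those of the background-like barcodes, which held 6.94 CPM (5.03 to 9.35) of Lhx1 and 6.78 CPM (4.89 to 9.17) of Lhx5. In the distal region Lhx5 had 9 UMIs in inhibitory nuclei (11.9 CPM) and 0 in excitatory ones, where 3 counts would be 5.18 CPM. Without nuclei that held Pkd2l1 or Pkd1l2, genes of neurons that contact the cerebrospinal fluid, the core Lhx5 ratio was 0.450 (0.185 to 0.954) and was called. It was also called at clustering resolution 0.5 (0.484).

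In all, 5 of 7 factors were called lower in core excitatory nuclei, where 1.17% of all genes with enough UMIs were, and 3 of 4 in the distal region, where 3.02% were. The median log2 ratio of these factors was -1.18 in the core and -3.32 in the distal region, beside -0.01 and -0.04 over all genes with enough UMIs. Lmx1b, Pax2, Pax8 and Sall3 were also apart both inside cluster 1 and outside it. Within cluster 1 Lmx1b stood at 48.0 CPM in 393 excitatory and 22.0 CPM in 1219 inhibitory nuclei, a ratio of 2.19 (1.52 to 3.12), and the ratios were 0.424 (0.316 to 0.559) for Pax2, 0.427 (0.231 to 0.735) for Pax8 and 0.300 (0.117 to 0.650) for Sall3. In the other core neuron clusters the Lmx1b levels were 170 and 64.9 CPM, a ratio of 2.62 (2.06 to 3.34), and the ratios were 0.276 (0.192 to 0.387) for Pax2, 0.227 (0.114 to 0.409) for Pax8 and 0.143 (0.0562 to 0.303) for Sall3. Gbx1 had a ratio of 0.660 (0.266 to 1.43) inside cluster 1 and 0.289 (0.120 to 0.601) outside it, and Lhx1 0.293 (0.0574 to 0.933) and 0.770 (0.136 to 2.99).

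**Figure D1:**
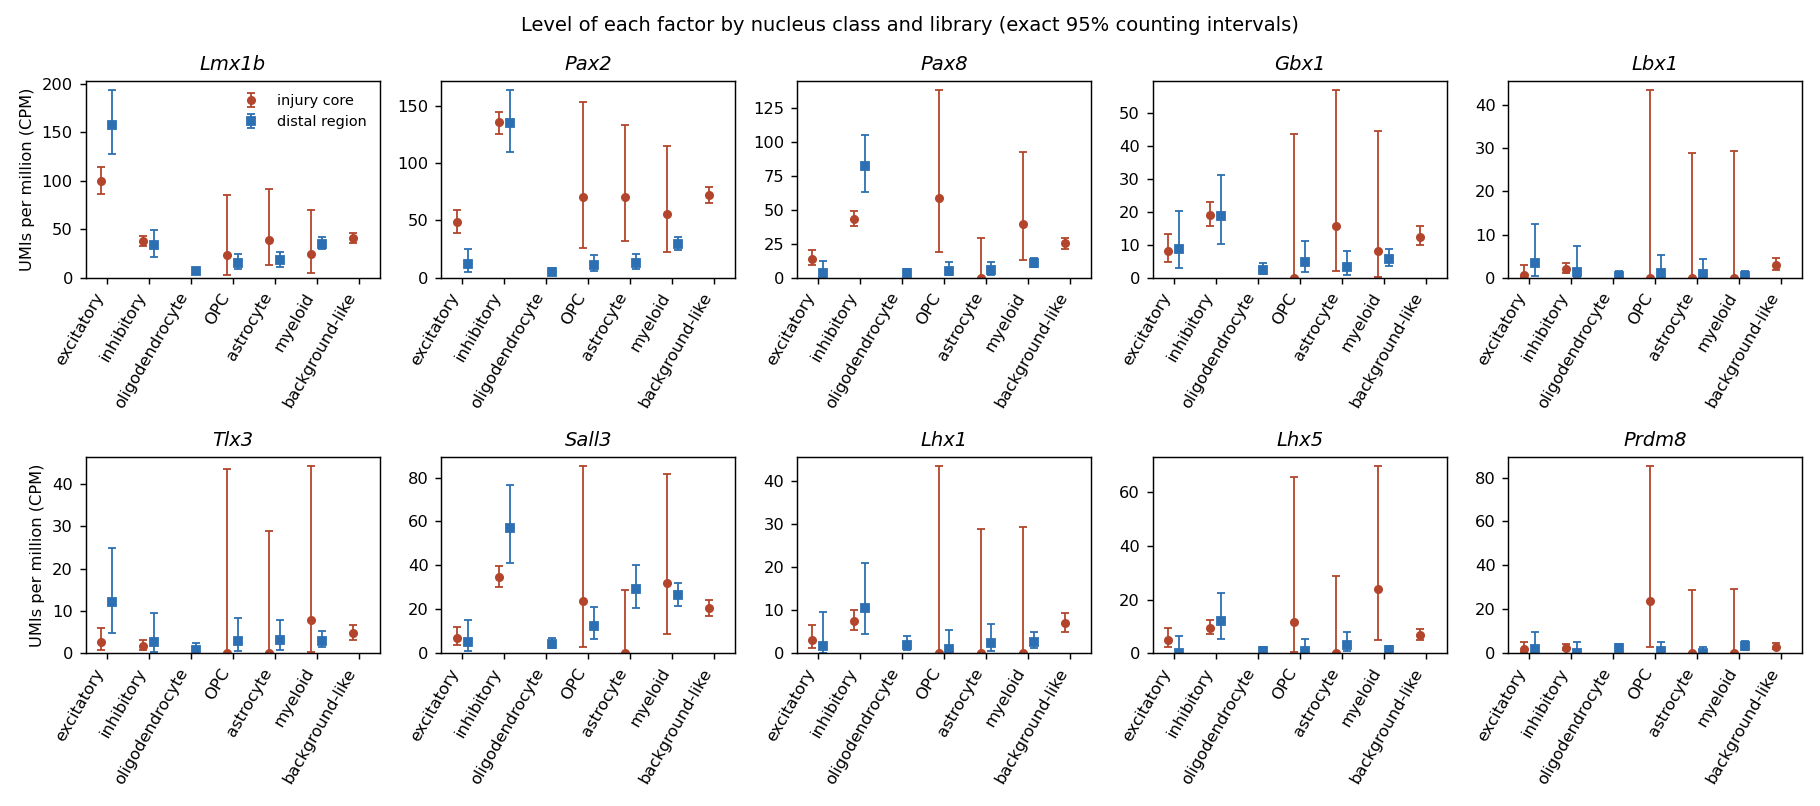
Level of each factor in CPM (linear axis from 0) in classes of at least 50 nuclei, with the injury core as circles and the distal region as squares, and bars as exact 95% counting intervals. Lmx1b stands highest in excitatory nuclei (99.2 and 157 CPM), Pax2 in inhibitory nuclei (136 and 135 CPM), and the core glial intervals are wide because those classes hold 51 to 78 nuclei.

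**Figure D2:**
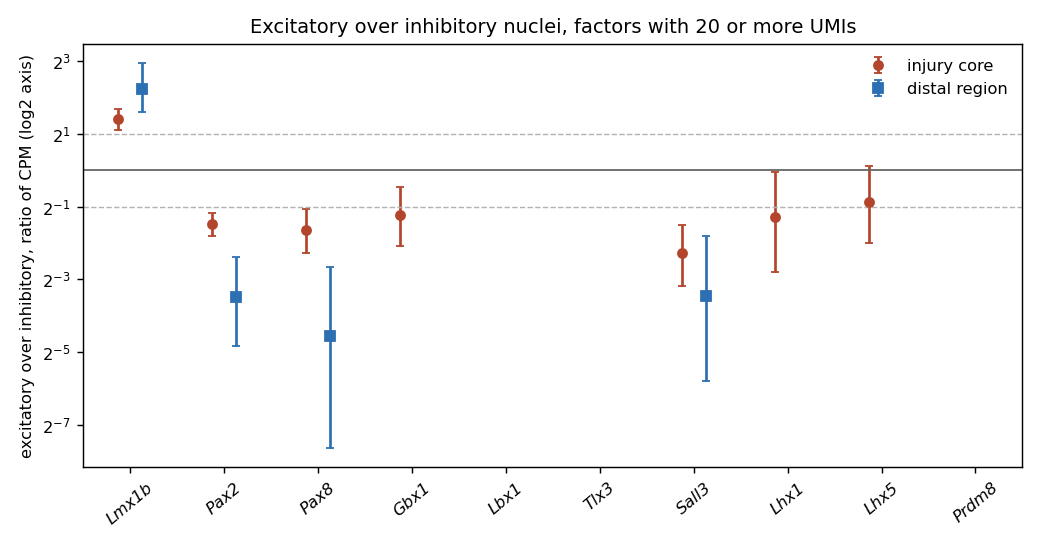
Ratio of the level in excitatory over inhibitory nuclei on a log2 axis for factors with at least 20 UMIs, with exact conditional 95% intervals, circles for the core and squares for the distal region, and dashed lines at 2-fold. Lmx1b lies above 1 and Pax2, Pax8 and Sall3 lie below 1 in both libraries, and Lbx1, Tlx3 and Prdm8 have no point.

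For Lmx1b, Pax2 and Pax8, detection at a fixed depth followed the same order. Each nucleus was thinned to 1000 UMIs, which left 714 and 190 excitatory and 2019 and 210 inhibitory nuclei in core and distal region, and left out 35, 8, 85 and 5. Lmx1b was found in 8.26% (exact binomial 95% interval 6.35 to 10.5) of core excitatory and 4.36% (3.51 to 5.34) of core inhibitory nuclei, and in 13.7% (9.14 to 19.4) and 3.81% (1.66 to 7.37) of distal ones. Without thinning the 4 shares were 19.0%, 8.51%, 30.8% and 9.30%. Pax2 was found in 4.2% (2.85 to 5.94) of core excitatory and 11.8% (10.5 to 13.3) of core inhibitory nuclei, and in 1.58% (0.327 to 4.54) and 13.3% (9.05 to 18.7) of distal ones, or 9.75%, 25.8%, 3.54% and 29.8% without thinning. A second random draw of UMIs gave 8.10% for Pax2 in distal inhibitory nuclei and 10.6% for Lmx1b in core excitatory nuclei. Pax8 was found in 0.840% and 4.06% of core and in 0 of 190 (which allows up to 1.58%) and 7.62% of distal excitatory and inhibitory nuclei. Distal oligodendrocytes, which should lack these genes, showed Lmx1b in 0.633% (0.304 to 1.16), Pax2 in 0.253% (0.0690 to 0.647) and Pax8 in 0.443% (0.178 to 0.911) of 1580 nuclei, at a median of 1780.5 UMIs before thinning against 2515.5 in distal excitatory and 2922 in distal inhibitory nuclei. The core background-like barcodes showed Lmx1b in 4.88% (3.98 to 5.91) and Pax2 in 6.65% (5.60 to 7.82) of 2030, at a median of 932 UMIs over all of them. Pax8 was found in 53 of these 2030. The core shares of Lmx1b in inhibitory and of Pax2 and Pax8 in excitatory nuclei were thus no higher than the background-like share and are not read as evidence of expression. The background-like barcodes were set apart by their low variation alone, and whether they hold neurons of low depth was not tested.

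In the distal region the glial classes were larger, but they also held RNA of transmitter genes. Gad1 stood at 29.7 CPM in distal neurons and 30.5 CPM in distal oligodendrocyte precursors, a ratio of 0.974 (0.652 to 1.49). Slc17a6 was called higher in neurons over each distal glial class, with ratios from 7.79 over oligodendrocytes to 2.28 over myeloid nuclei. The part of such RNA in the ratios below was not tested. Over oligodendrocytes, distal neurons were higher in 6 of 7 factors with enough UMIs, beside 21% of all 13610 such genes, and 0 were lower, beside 15.1%. Lmx1b stood at 119 CPM (109 to 131) in neurons and 6.31 CPM (4.0 to 9.47) in oligodendrocytes, a ratio of 18.9 (12.4 to 30.2). The ratios of Tlx3 (12.3, 3.91 to 62.4), Pax2 (9.43, 5.87 to 16.0), Pax8 (8.09, 4.54 to 15.7), Gbx1 (6.08, 2.86 to 14.9) and Sall3 (5.41, 3.16 to 9.88) followed, and Lhx1 was not called at 1.95 (0.735 to 5.70). Over oligodendrocyte precursors (OPC) 5 of 6 factors were higher and 0 lower, where 10.8% and 10.2% of genes were. Over astrocytes 5 of 7 were higher and 0 lower, where 10.4% and 14.9% were, and over myeloid nuclei 5 of 9 and 0, where 9.81% and 15.6% were. Lmx1b, Pax8, Gbx1 and Tlx3 were higher in neurons in each of these distal comparisons. Tlx3, however, lost its calls over OPC, astrocytes and myeloid nuclei at clustering resolution 2.0 (ratios of 1.40 to 1.65). There a cluster of 263 distal barcodes led by Fer1l6 was classed as mixed and not as neurons, and its part in this loss was not tested. Tlx3 also lost its calls over OPC (3.15) and astrocytes (2.73) when nuclei with the highest doublet scores were left out.

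Sall3 was not called between distal neurons and astrocytes, OPC or myeloid nuclei. Over OPC its ratio was 1.92 (1.07 to 3.75), just under 2-fold. That ratio was called with median-of-ratios scaling (2.14), with at least 500 genes (2.07) and without the highest doublet scores (2.04). Lhx5 was likewise not called over astrocytes, nor were Pax2 (1.68, 1.32 to 2.15), Lhx1 and Prdm8 over myeloid nuclei. The Sall3 level was 29.4 CPM (20.8 to 40.3, 38 UMIs) in astrocytes and 26.3 CPM (21.3 to 32.0, 97 UMIs) in myeloid nuclei, beside 23.8 CPM (19.1 to 29.3, 89 UMIs) in neurons, 12.4 CPM (6.59 to 21.2) in OPC and 4.39 CPM (2.51 to 7.13) in oligodendrocytes. The astrocyte, myeloid and neuron intervals overlapped, and all lay above that of oligodendrocytes. Thinned to 1000 UMIs, Sall3 was found in 2.60% of distal astrocytes (1.35 to 4.50), 3.98% of myeloid nuclei (2.59 to 5.82) and 0.506% of oligodendrocytes (0.219 to 0.995), or 5.02%, 9.41% and 0.922% without thinning. Neurons over astrocytes had a ratio of 0.810 (0.548 to 1.22) for Sall3, against 6.72 (4.42 to 10.7) for Lmx1b and 3.74 (2.27 to 6.56) for Pax2. A comparison of glial classes was added after these levels were seen. In it Sall3 was 6.69 times (3.64 to 12.8) higher in astrocytes than in oligodendrocytes, beside 2.82 (1.51 to 5.25) for Lmx1b and 2.52 (1.23 to 5.12) for Pax2, and 3 of 4 factors were higher and 0 lower where 15.8% and 5.31% of genes were. Myeloid nuclei over oligodendrocytes gave 5.98 (3.50 to 10.9) for Sall3, 5.53 (3.53 to 9.04) for Lmx1b and 5.61 (3.42 to 9.67) for Pax2, with 5 of 6 factors higher and 0 lower where 17.5% and 2.31% of genes were. OPC over oligodendrocytes gave 2.82 (1.25 to 6.25) for Sall3 and 2.41 (1.19 to 4.77) for Lmx1b, and 2 of 3 factors were higher and 0 lower where 12.2% and 6.89% of genes were. The summed neuron markers stood at 6081 CPM in distal astrocytes and 6867 CPM in distal myeloid nuclei against 3497 CPM in oligodendrocytes, and myeloid nuclei also held 8381 CPM of the 8 oligodendrocyte markers against 15213 CPM in oligodendrocytes. Their part in the glial levels was not tested.

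In the core the glial classes were small, with 57 OPC, 78 astrocytes and 51 myeloid nuclei and 11 oligodendrocytes, which were not compared. Core astrocytes held 70.6 CPM of Pax2 (32.3 to 134, 9 UMIs) and 39.2 CPM of Lmx1b (12.7 to 91.5, 5 UMIs), beside 91.8 and 67.9 CPM in core neurons. Over astrocytes, 1 of 10 factors was called higher in neurons, Pax8 from 0 UMIs in astrocytes, and 0 were lower, where 0.951% and 5.82% of genes were. Over OPC, 0 were higher and 1 was lower, Prdm8 from 2 UMIs in OPC, where 0.875% and 3.81% of genes were. Over myeloid nuclei 0 were higher and 0 lower, where 0.440% and 3.62% of genes were. A difference between core neurons and core glia was thus mostly not detectable. The counts were low, and these glia held 16697 to 20593 CPM of the neuron markers against 23135 CPM in core neurons. The part of each was not tested.

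Between regions, 1 of 4 factors with enough UMIs was higher in core than in distal excitatory nuclei and 0 were lower, where 4.71% and 5.52% of 9774 genes were. It was Pax2, at 48.3 CPM in the core and 12.1 CPM in the distal region, 4.0 times (1.87 to 10.2) higher in the core. Pax8 stood at 13.7 and 3.45 CPM (3.97, 0.999 to 34.5) and Lmx1b at 99.2 and 157 CPM (0.631, 0.489 to 0.818), and neither was called. The core background-like barcodes held 71.9 CPM of Pax2 (65.3 to 78.9) and 25.2 CPM of Pax8 (21.4 to 29.5), above the core excitatory levels of both genes, and the part of such RNA in this difference was not tested. With at least 2 UMIs of the transmitter gene, Pax2 no longer had the UMIs for a call. In inhibitory nuclei 0 of 7 factors were higher in the core and 0 lower, where 2.40% and 5.96% of 12653 genes were. There Pax2 had a ratio of 1.0 (0.816 to 1.25), Gbx1 1.02 (0.585 to 1.93), Lmx1b 1.14 (0.750 to 1.79), Pax8 0.523 (0.395 to 0.703) and Sall3 0.609 (0.436 to 0.868). Without cluster 1 the Gbx1 ratio was 2.21 (1.14 to 4.82), which was called, and that of Sall3 was 0.936 (0.655 to 1.36). Of Hox genes that mark the level along the cord, 4 of 6 with enough UMIs were higher in core excitatory and 5 of 8 in core inhibitory nuclei, where 4.71% and 2.40% of all genes were, and 0 were lower. Hoxc10 stood at 39.2 CPM in core and 1.32 CPM in distal inhibitory nuclei. Hoxc6 (1.07, 0.817 to 1.44) and Hoxc9 (1.95, 1.36 to 2.91) were not called in inhibitory nuclei. Region and cord level cannot be told apart here.

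Nuclei that held 2 factors at once were counted at the fixed depth of 1000 UMIs. Of the 45 pairs of factors, 30 were found together in at least 1 of 8105 core neurons and 10 in at least 1 of 1375 distal neurons. The number expected is the product of the 2 shares times the nuclei. Lmx1b and Pax2 met less often than expected in both libraries. In the core 22 neurons held both where 43.4 were expected, a ratio of 0.507 (0.318 to 0.767), and in the distal region 1 did where 7.03 were expected, a ratio of 0.142 (0.00360 to 0.792). Of core neurons with Lmx1b, 4.13% (2.60 to 6.18) held Pax2, against 8.43% (7.81 to 9.07) of those without it. At 2000 UMIs per nucleus the ratios were 0.577 (0.404 to 0.799) and 0.268 (0.0552 to 0.783). Within core inhibitory nuclei the ratio was 0.288 (0.0594 to 0.842) at 1000 UMIs, from 3 nuclei, but 0.662 (0.342 to 1.16) at 2000 UMIs, and within core excitatory nuclei it was 0.807 (0.0977 to 2.91) at 1000 UMIs, so no stable deficit was seen inside either class. The core background-like barcodes had 1 with both where 6.58 were expected, a ratio of 0.152 (0.00385 to 0.846). Without thinning they had 8 where 16.1 were expected (0.497, 0.215 to 0.979), so a deficit was also seen there. Lmx1b and Sall3 were found together in 4 core neurons where 13 were expected, a ratio of 0.307 (0.0837 to 0.787), and in 0 distal neurons where 2.84 were expected. At 2000 UMIs this pair had ratios of 0.594 (0.285 to 1.09) and 0.122 (0.00310 to 0.682), so the core interval then held 1. Lmx1b and Pax8 met in 10 core neurons where 14.8 were expected, and this interval (0.324 to 1.24) held 1, while that at 2000 UMIs (0.526, 0.272 to 0.919) did not.

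Over all core neurons, the pairs below among the factors of inhibitory neurons matched or exceeded the expected number. Pax2 and Pax8 met in 27 core neurons where 18.3 were expected, a ratio of 1.47 (0.971 to 2.14), and in 6 distal neurons where 1.35 were expected, a ratio of 4.44 (1.63 to 9.65). Pax2 and Gbx1 met in 17 core neurons where 9.36 were expected (1.82, 1.06 to 2.91), and in 0 distal neurons where 0.676 were. Pax2 and Sall3 met in 21 core neurons where 16.1 were expected (1.3, 0.806 to 1.99). Gbx1 and Sall3 met in 9 core neurons where 2.81 were expected, a ratio of 3.20 (1.46 to 6.08), a pair named after its value was seen. At 2000 UMIs Pax2 and Pax8 had ratios of 1.95 (1.52 to 2.47) in core and 3.52 (1.69 to 6.48) in distal neurons, and Pax2 and Sall3 of 1.49 (1.06 to 2.04) and 3.74 (1.93 to 6.53). Within core inhibitory nuclei Pax2 and Pax8 met in 11 where 9.71 were expected (1.13, 0.566 to 2.03), with a ratio of 1.39 (0.947 to 1.98) at 2000 UMIs and 1.31 (1.02 to 1.65) without thinning, where nuclei differ in depth. Pax2 and Sall3 had ratios of 1.10 (0.504 to 2.09) there and 0.702 (0.384 to 1.18) at 2000 UMIs. Those of Pax2 and Gbx1 were 1.24 (0.454 to 2.69) and 1.65 (0.902 to 2.77). At a fixed depth no excess of these pairs was thus clear inside this class. Leaving out the nuclei with the highest doublet scores gave 0.515 for Lmx1b with Pax2 and 1.52 for Pax2 with Pax8 in the core.

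**Figure D3:**
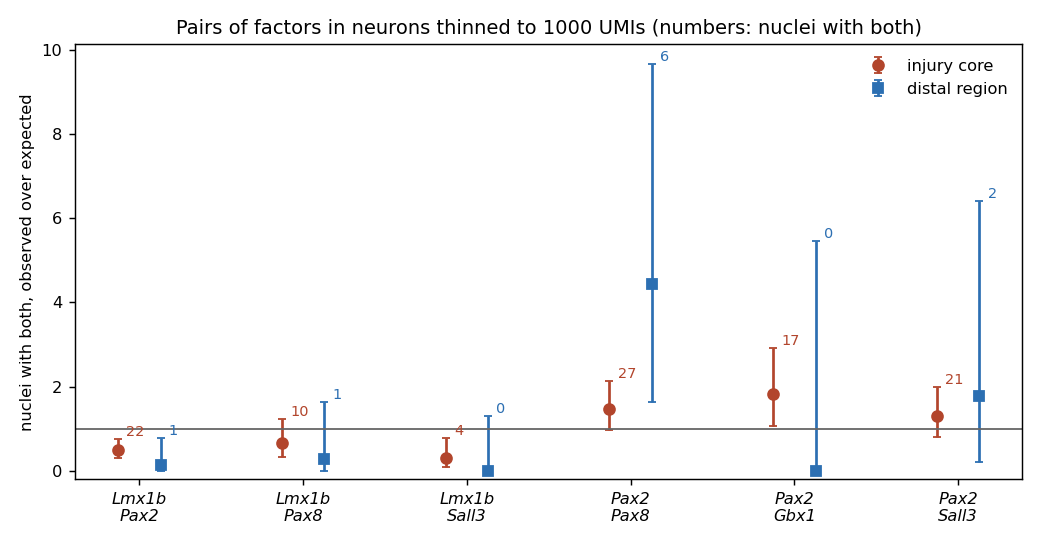
Number of neurons that held both factors over the number expected, on a linear axis, for the pairs with at least 10 nuclei observed or expected in 1 library, at 1000 UMIs per nucleus. Bars are exact 95% intervals, the printed numbers are nuclei with both, and the Lmx1b and Pax2 intervals lie below 1 in the core (22 nuclei) and in the distal region (1 nucleus).

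Neurons alone were clustered again, without the 10 genes, into 20 subclusters, and each was set on the excitatory or the inhibitory side by which was higher, Slc17a6 or the sum of the 4 inhibitory genes, each divided by its mean over subclusters. In the core, Lmx1b ran from 41.1 to 238 CPM over 10 excitatory subclusters and from 11.4 to 31.0 CPM over 7 inhibitory ones, and Pax2 from 16.3 to 77.0 CPM and from 82.3 to 349 CPM. The core values of the sides did not overlap for either gene, but the intervals of the subclusters nearest to each other did for Lmx1b (33.8 to 49.4 and 27.3 to 35.2) and Pax2 (67.0 to 88.1 and 76.1 to 88.9). A core subcluster of 1799 nuclei led by Creb5 and Taco1, with 56.7 CPM of Slc17a6 and 149 CPM of the inhibitory genes, fell on the excitatory side and held the lowest Lmx1b and the highest Pax2 of it. In the distal region Lmx1b ran from 112 to 227 CPM over 7 excitatory subclusters and from 5.69 to 32.0 CPM over 3 inhibitory ones. Pax2 ran from 4.12 to 19.5 CPM on the distal excitatory side and reached 148 CPM on the inhibitory side, but stood at 16.0 CPM, inside the excitatory range, in the subcluster led by Pkd1l2, Myo3b and Pkd2l1, the cerebrospinal fluid contacting neurons, which also held 5.33 CPM of Pax8 and 21.3 CPM of Sall3.

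Inhibitory subclusters differed in the other factors. Pax2 was highest, at 349 CPM, in the core subcluster led by Trabd2b, Cdh3 and Tll1. In the subcluster led by Gucy2d, Pax8 stood at 108 CPM in the core and 162 CPM in the distal region, and Sall3 stood at 30.4 and 32.4 CPM. In the subcluster whose leading genes include Rorb, Sall3 stood at 111 CPM in the core and 142 CPM in the distal region, with Pax8 at 99.6 and 148 CPM. A core subcluster led by Rxfp2 held 141 CPM of Sall3 and 84.4 CPM of Gbx1 with 38.8 CPM of Pax8, and another led by Qrfpr and Plch1 held 136 CPM of Pax8 and 7.72 CPM of Sall3. Sall3 and Pax8 thus did not share an order across the inhibitory subclusters. Tlx3 stood highest in excitatory subclusters with high Lmx1b: 28.9 CPM beside 227 CPM of Lmx1b in a distal subcluster led by Fer1l6, and 19.6 and 23.2 CPM beside 238 and 188 CPM in the core and distal part of a subcluster led by Mylk and Nmu. In the distal subcluster led by Scara5 and Nts it had no UMI beside 202 CPM of Lmx1b. When all barcodes were clustered at resolution 2.0, a cluster of 263 distal barcodes led by Fer1l6 was classed as mixed and not as neurons.

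**Figure D4:**
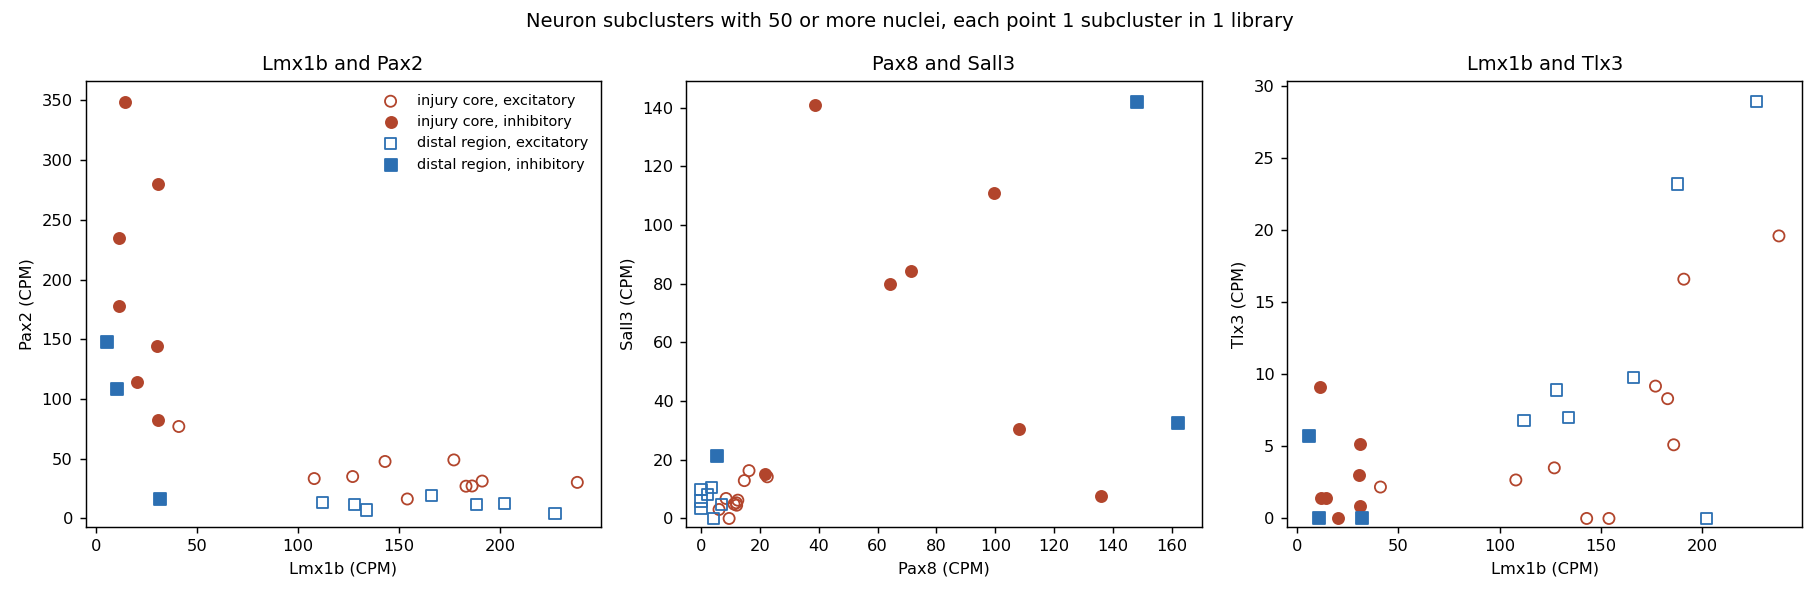
Level of pairs of factors (CPM, linear axes) in neuron subclusters of at least 50 nuclei, each point 1 subcluster in 1 library, with open symbols for the excitatory and filled ones for the inhibitory side, circles for the core and squares for the distal region. Excitatory points lie along the Lmx1b axis (41.1 to 238 CPM) with Pax2 at 77.0 CPM or less, and inhibitory points have Lmx1b at 32.0 CPM or less, with Pax2 from 82.3 to 349 CPM in the core and 16.0 to 148 CPM in the distal region.

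Likeness was measured as Pearson's r of log2(CPM + 5) over 22 points, each a subcluster of at least 100 nuclei in 1 library, against 9736 other genes that reached 20 CPM. The points share libraries, depth and free RNA, so r is a description. Lmx1b was most like Tmem163 (r = 0.942), the calcium channel subunit gene Cacna2d1 (0.941) and Dscam (0.915). Pax2 was most like Gad2 (0.943), which makes GABA, Pax8 (0.904) and Pde1a (0.899), and Pax8 was most like Sfrp1 (0.910), Pax2 and Gad2 (0.886). Gbx1 was most like Sall3 (0.852), Kank1 (0.824) and Nr2f2 (0.811), while Sall3 was most like Kank1 (0.947), Gm20713 (0.920) and Gpc5 (0.862). Lhx5 was most like Gad1 (0.909), Gpc5 (0.908) and Gm14204 (0.898), Lhx1 was most like Rapgef2 (0.798), Pde1a (0.783) and Lhx1os (0.776), and Tlx3 was most like Cnot7 (0.857), Amelx (0.856) and Rasef (0.844). Tlx3 had 14 UMIs or fewer at each point. With subclusters at resolution 0.5 only Lmx1b kept all of its nearest genes. Those of Lhx5 were then Gpc5 (0.914), Agap3 (0.910) and Fstl5 (0.886), and those of Tlx3 Cnot7 (0.869), Anp32e (0.818) and 5330417C22Rik (0.811). Lmx1b and Pax2 had an r of -0.879. Gad1 and Gad2 took part in the clustering, and Lbx1 and Prdm8 did not reach 20 CPM at any point.

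Other genes of the same lineages were compared by lists. Of 30 other dorsal horn factors, 15 had enough UMIs in the core and 3 were called higher in excitatory nuclei and 0 lower, beside 0.895% and 1.17% of all genes. Prrxl1, a homeobox gene of excitatory dorsal horn neurons, was called higher in both libraries, at 18.8 against 8.98 CPM in the core (2.10, 1.34 to 3.26) and 46.6 against 17.2 CPM in the distal region (2.71, 1.35 to 5.72). In the core Pou4f1 (2.46, 1.15 to 5.16) and Skor2 (2.29, 1.23 to 4.21) were the others. In the distal region 8 had enough UMIs, and 1 was called higher and 1 lower, beside 2.21% and 3.02% of all genes. Rorb was the lower one, at 60.5 against 290 CPM (0.208, 0.142 to 0.299). Of 19 ventral and intermediate lineage factors 1 had enough UMIs in the core and 0 in the distal region, and it was not called. Of 18 paralogs of the 10 factors, 4 had enough UMIs in the core and 0 in the distal region, and Pax5 was called lower in core excitatory nuclei, at 1.53 against 5.18 CPM (0.295, 0.0575 to 0.947). Of 17 neuropeptide genes, 11 had enough UMIs in the core, and 1 was called higher in excitatory nuclei, Cck (2.95, 1.16 to 7.49). In the distal region 3 had enough UMIs, and 2 were called higher, Nmu (4.78, 1.88 to 14.4) and Adcyap1 (3.26, 1.20 to 10.3).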

How the data were processed

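Whole-number UMI counts were deposited by the authors as 1 sparse matrix per library, made with Cell Ranger 7.1.0 per the file headers. The submitters' processing notes name Cell Ranger, Seurat, mm10 and GRCh38, and the annotation and counting strand are not given in the sources used here. Of 32285 features 32158 (99.6%) are in GENCODE M21 on GRCm38. Filters of 300 genes or more and 5% mitochondrial UMIs or less left 16360 core and 7443 distal barcodes. Scrublet called 0 doublets and was taken not to have worked, so doublets were left in. Counts were clustered with scanpy 1.11.5 and leidenalg 0.10.2 (2000 variable genes without the 10 factors, 40 components, resolution 1.0, 21 clusters) and named from marker lists by rules set after the data were seen. UMIs were summed per class and library and compared with exact intervals, and the routine was tested on simulated data. With 1 library per region no test across samples was possible. Factors and lists were chosen with earlier results of these data known. The 10 factors were all named. Of other lists, genes called in both libraries were named, or else at most 2 per library and direction, and the 3 genes most like each factor. Pairs were named from 10 nuclei observed or expected.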

Additional observations from a re-analysis of the deposited data

Results flagged for a closer look

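Neurons of the core library that held UMIs of both transmitter kinds entered neither the excitatory nor the inhibitory class by UMIs, but counted among all core neurons. In these 198 nuclei, at a median of 2995 UMIs, 7 of the 10 factors had more than 3 UMIs. Pax2 stood at 101 CPM and Lmx1b at 51.0 CPM, each between its excitatory and its inhibitory core level. Pax8 stood at 36.9 CPM, Gbx1 at 12.8 CPM and Sall3 at 14.2 CPM, also between the levels of the 2 classes. Lhx1 stood at 9.92 CPM and Lhx5 at 11.3 CPM. At a fixed depth of 1000 UMIs, 9.14% of these nuclei held Pax2 and 6.09% held Lmx1b. Doublets were not removed, and their part in these nuclei was not tested.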

How the results depend on the processing

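No paired analysis was possible because each region has 1 library. Over all settings, 158 counts of called genes kept their value within the limits set, and no called ratio changed direction. The other 29 values were counts that did not and the subcluster correlations given below, for which no limit was set. Alternatives without cluster 1 or with background-like barcodes were chosen after seeing the data. With classes from subclusters, factors called higher in excitatory nuclei were 2 in the core and 2 in the distal region (1 each before), and core over distal gave 3 higher and 1 lower in excitatory and 1 and 1 in inhibitory nuclei (before, 1 and 0, and 0 and 0). With all barcodes, factors called lower in excitatory nuclei were 3 in the core and 5 in the distal region. At 1.5-fold, other dorsal horn factors called lower were 1 in the core and 2 in the distal region, those called higher in the distal region 2, and factors called lower in the core than in the distal region 1 in excitatory and 2 in inhibitory nuclei. In excitatory nuclei, core over distal gave 0 higher with at least 2 transmitter UMIs, 2 with median-of-ratios scaling and 2 without Pkd2l1 or Pkd1l2 nuclei, which also gave 1 lower in inhibitory nuclei. Without cluster 1, core over distal gave 1 higher in inhibitory nuclei (Gbx1, 2.21), and core neurons were higher in 1 factor over OPC, 3 over astrocytes and 1 over myeloid nuclei. Over core myeloid nuclei, 1 factor was lower at resolution 0.5, and 1 was higher and 1 lower at resolution 2.0. Over core astrocytes 0 were higher at resolution 0.5, and over core OPC 0 were lower without the highest doublet scores. Across subclusters at resolution 0.5, r was -0.880 for Lmx1b and Pax2, 0.894 for Pax2 and Pax8 and 0.886 for Gbx1 and Sall3. At resolution 1.0 these were -0.879, 0.904 and 0.852. The cause of the shifts in the counts was not tested. With another random seed at the fixed depth, Lmx1b was found in 10.6% of core excitatory and Pax2 in 8.10% of distal inhibitory nuclei, outside the counting intervals of the first draw, so thinned shares also carry an error from the draw.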

Other observations

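UMIs of transcripts annotated on the opposite strand of 3 factors were summed by class, with no call made. Gm13415, which overlaps Pax8, had 42 UMIs (7.25 CPM) in core inhibitory and 3 (1.53 CPM) in core excitatory nuclei, and 17 (22.5 CPM) and 1 (1.73 CPM) in the distal region. Over Pax2, Gm20395 had 31 UMIs (5.35 CPM) in core inhibitory and 1 (0.509 CPM) in core excitatory nuclei, and 1700039E22Rik had 36 (6.21 CPM) and 4 (2.03 CPM). Gm27199, which overlaps Lhx5, had 51 UMIs (8.80 CPM) in core inhibitory and 9 (4.58 CPM) in core excitatory nuclei. Each partner was counted as a gene of its own. The counting strand is not stated, so whether reads of a factor and of its partner were kept apart is not known. Neurons without any transmitter UMI held 138 CPM of Lmx1b (124 to 154) in the distal region and 79.0 CPM (73.9 to 84.4) in the core, and 29.6 CPM (23.0 to 37.4) and 76.5 CPM (71.5 to 81.7) of Pax2.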
